A study of Drosophila melanogaster with 18 samples.

Results

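The 9 genes described here belong to larval organs other than the wing disc. Sgs3, Sgs7 and Sgs8 encode glue proteins of the salivary gland, and Fbp1, Fbp2, Lsp2, Lsp1alpha, Lsp1beta and Rfabg encode proteins of the fat body. They were chosen by symbol from the 17373 genes of the count table because earlier results of these libraries had shown them at uneven levels. Their levels and the differences between groups are therefore descriptions and carry no test. Of the 9 genes, 8 passed the filter on low counts, Sgs3 and Sgs7 among them only through the control discs, and Sgs8 did not pass.

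RNA was sequenced from hand-dissected wing imaginal discs, the larval epithelia that form the wing and thorax, of wandering last-instar Drosophila larvae. All discs carried clones made with Ubx-FLP recombinase and FRT82B in a Minute background, where cells outside the clones grow slowly. The groups were discs with wts149 clones at day 5, discs with wts149 clones at day 9, and discs with FRT82B control clones at day 5. The gene wts (warts) encodes a kinase of the growth-restraining Hippo pathway. Each group had 3 numbered replicates, each the sum of an a and a b library. The sources used here give neither the lesion of wts149 nor the mutant share of the discs, and no day 9 control discs were analysed here, so age and genotype change together between wts day 9 and control discs. The controls are labelled day 5, but their description text reads d5.d6. What a replicate stands for is not stated in the labels, and p-values therefore reflect only the spread among the sequenced samples, which may be technical.

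Larval salivary glands make glue late in the last larval instar and expel it at pupariation to fix the pupal case to its support. The steroid hormone ecdysone is known to switch the glue genes on and, in the late larval pulse, to switch them off. The fat body, the larval store and liver-like organ, secretes hexamerin storage proteins into the haemolymph and takes them back before metamorphosis through a receptor, and ecdysone is known to induce genes of this program too. Neither program is known as part of normal wing disc development.

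The 3 glue genes lie side by side on chromosome arm 3L in the BDGP6.54 (dm6) annotation. Sgs8 spans 11508967 to 11509394 on the minus strand, Sgs7 11509861 to 11510247 and Sgs3 11512221 to 11513402, both on the plus strand. Sgs8 and Sgs7 are separated by 466 bases and Sgs7 and Sgs3 by 1973 bases. All 3 are protein-coding genes with 2 exon blocks, and no annotated exon of another gene overlaps them. The build behind the deposited counts is not given in the sources used. Sgs7 and Sgs8 are close paralogs, and how reads that match several places were counted is not given either, so the split between them is uncertain.

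Glue RNA was almost confined to the control discs, and within them to replicates 2 and 3. Sgs3, the large mucin-like glue protein gene, had 0, 0.140 and 0.260 CPM (counts scaled to a common library total of 1000000 with TMM factors) in wts day 5 replicates 1 to 3, 0.480, 0.0517 and 0 CPM in wts day 9 replicates 1 to 3, and 0.983, 97.5 and 2570 CPM in control replicates 1 to 3. The counts behind these values were 0, 2 and 5 in wts day 5 discs, 9, 1 and 0 in wts day 9 discs, and 21, 2196 and 48415 in control discs. The 3 control replicates lay above all 6 wts replicates, and control replicate 3 exceeded control replicate 1 by a ratio of 2615 (95% counting interval 1710 to 4224).

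Sgs7 and Sgs8, which encode small glue proteins, followed the same order. Sgs7 had 0.104, 0.0702 and 0.104 CPM in wts day 5 discs, 0.320, 0.0517 and 0 CPM in wts day 9 discs, and 1.17, 54.2 and 1213 CPM in control discs. Sgs8 had 0.0518, 0.140 and 0.0519 CPM in wts day 5 discs, 0.213, 0.0517 and 0 CPM in wts day 9 discs, and 0.421, 17.8 and 357 CPM in control discs. For both genes every wts value lay below every control value, and the 2 wts groups overlapped. Summed over replicates, Sgs7 held 5 counts in wts day 5 discs, 7 in wts day 9 discs and 24093 in control discs, and Sgs8 held 4, 5 and 7127 counts in the same order of groups.

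**Figure D1:**
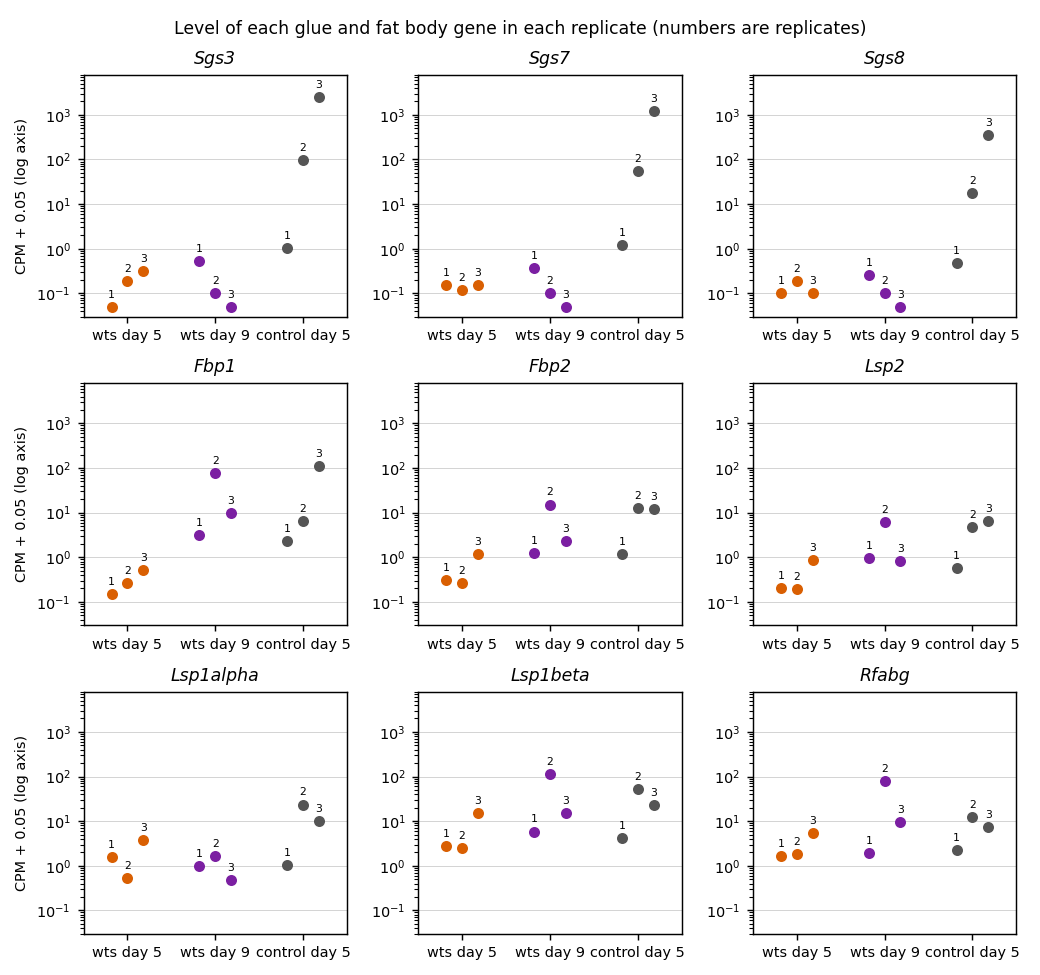
Level of each of the 9 genes in each replicate, as CPM with 0.05 added on a log axis, for wts day 5, wts day 9 and control day 5 discs (points are replicates, with their numbers). The glue genes are high in control replicates 2 and 3 alone, with Sgs3 at 97.5 and 2570 CPM, while the fat body genes are spread over all 3 groups, with Fbp2, Lsp1beta and Rfabg highest in wts day 9 replicate 2 and Fbp1, Lsp2 and Lsp1alpha highest in a control replicate.

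As a share of all counts, the 3 glue genes made up 0.432% in control replicate 3 (77979 of 18063124 counts; exact 95% interval 0.429% to 0.435%), 0.0172% in control replicate 2 and 0.000262% in control replicate 1. In wts day 9 replicate 3 they held 0 of 20899989 counts, which allows a share of up to 1.44e-05%, the share of 3 counts. Intervals and this limit cover counting error only. Per kilobase of exon, the scale on which genes can be compared, Sgs7 was the highest glue gene in control replicate 3 with 3778 CPM per kb, followed by Sgs3 with 2318 and Sgs8 with 993.

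The mixture of glue transcripts was similar, though not equal beyond counting error, in the 2 control replicates that had many of them. Sgs3 supplied 62.1% of glue counts in control replicate 3 (95% interval 61.8% to 62.4%) and 57.5% in control replicate 2 (55.9% to 59.1%), and Sgs7 supplied 29.3% and 32.0%. In control replicate 1 the shares rested on 55 counts, with Sgs3 at 38.2% (25.4% to 52.3%) and Sgs7 at 45.5%. The intervals of the Sgs3 share do not overlap among the 3 control replicates.

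In the fit across all genes (edgeR quasi-likelihood F-test, called below 0.05 after Benjamini-Hochberg adjustment), 8.88% of 8585 genes were called lower and 9.64% higher in wts day 5 than in control discs. The members called lower there were Sgs3, Sgs7, Fbp1 and Fbp2, 4 of the 8 tested. By edgeR 0 were called higher, as by DESeq2 and at an unadjusted p under 0.05. The fitted log2 fold change was -12.65 ± 2.86 for Sgs3 and -12.03 ± 2.75 for Sgs7 (SE). Fitted folds of genes so close to 0 counts depend on the prior count, so the ratio of summed counts is the plainer value. Wts day 5 over control, scaled for depth, it was 0.000164 for Sgs3 (95% counting interval 6.60e-05 to 0.000338) and 0.000247 for Sgs7 (8.00e-05 to 0.000575). Without control replicate 3 the fitted values were -8.47 and -8.10. The number called lower was 0 without wts day 5 replicate 1 or 3, 2 without wts day 5 replicate 2 or control replicate 3, and 7 without control replicate 1. The filter was rerun in each of these fits, so members not tested in the full fit could enter. Fbp1 and Fbp2 also lost their calls without wts day 9 replicate 3, and Fbp2 without control replicate 2.

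For wts day 9 against control discs, 14.3% of genes were called lower and 15.3% higher, and the members called lower were Sgs3, Sgs7 and Lsp1alpha, with 0 called higher by edgeR, by DESeq2 or at an unadjusted p under 0.05. Sgs3 stood at a log2 fold change of -12.31 ± 2.76 and Sgs7 at -11.72 ± 2.65, or -8.13 and -7.79 without control replicate 3. Between wts day 9 and wts day 5 discs, 2.9% of genes were called lower and 5.44% higher, and 0 members were called in either direction by edgeR. At an unadjusted p under 0.05 the edgeR counts were 5 higher and 0 lower, and DESeq2 called Fbp1, Fbp2 and Rfabg higher on day 9 in that last comparison. With edgeR, Fbp1 was called higher there when control replicate 3 was left out (log2 fold change 6.76) and when the fit held only the 2 wts groups (6.77). Lsp1alpha lost its call in wts day 9 against control discs without any 1 of the wts day 9 replicates or without control replicate 2. These calls used the values by which the genes were chosen and are read as nothing more than a description.

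Counted by overlap instead of by fit, Sgs3, Sgs7, Sgs8 and Fbp1 were lower in all wts day 5 replicates than in all control replicates, 4 of the 9 genes, where 17.5% of all tested genes had that pattern. The 3 glue genes did so in wts day 9 discs, where 22.2% of tested genes had it. The other members overlapped with the controls. Fbp1 and Fbp2 were higher in every wts day 9 replicate than in every wts day 5 replicate, 2 of the 9 genes, where 18.2% of all tested genes had that pattern.

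The fat body genes were ordered differently over the replicates. Fbp1, the receptor through which the fat body takes up storage proteins (3L, 14094589 to 14098053), had 0.104, 0.211 and 0.467 CPM in wts day 5 discs, 3.15, 75.4 and 9.73 CPM in wts day 9 discs, and 2.25, 6.53 and 113 CPM in control discs. All wts day 5 replicates lay below the other 6, and 1 replicate each of wts day 9 and control discs stood far above the rest. Its log2 fold change in wts day 5 against control discs was -7.23 ± 2.11, or -4.02 without control replicate 3. In wts day 9 against control discs it was -0.47 ± 1.28, and 2.74 without control replicate 3, so that replicate set the sign.

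Fbp2, which encodes an alcohol dehydrogenase-like fat body protein (2L, 9426784 to 9427917), had 0.259, 0.211 and 1.14 CPM in wts day 5 discs, 1.23, 15.2 and 2.30 CPM in wts day 9 discs, and 1.12, 12.9 and 12.0 CPM in control discs. The ratio of control replicate 3 over control replicate 2 was 0.929 (95% counting interval 0.777 to 1.11) for Fbp2, against 17.4 (14.7 to 20.7) for Fbp1 and 26.4 (25.3 to 27.5) for Sgs3. The replicate with the most glue RNA therefore had no more Fbp2 RNA than its neighbour beyond counting error. Fbp2 overlaps CG42847 on the same strand over 4.5% of its exon bases.

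The storage protein genes themselves were each highest of the wts day 9 group in replicate 2, but by unlike margins. Lsp1beta, a subunit gene of the hexamerin LSP1 (2L, 898500 to 901316), had 2.74, 2.46 and 15.4 CPM in wts day 5 discs, 5.81, 115 and 15.1 CPM in wts day 9 discs, and 4.12, 51.4 and 23.2 CPM in control discs. Lsp1alpha, the gene of another LSP1 subunit (X, 12490291 to 12492982), had 1.50, 0.491 and 3.69 CPM in wts day 5 discs, 0.960, 1.60 and 0.431 CPM in wts day 9 discs, and 0.983, 23.6 and 9.87 CPM in control discs. All 3 groups overlapped for both genes. Where Lsp1beta peaked, at 115 CPM, Lsp1alpha had 1.60 CPM, its highest value in wts day 9 discs. Both were high in control replicates 2 and 3.

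Per 100 Lsp1beta counts there were 16.5, 1.40 and 2.85 Lsp1alpha counts in wts day 9 discs, 54.7, 20.0 and 24.0 in wts day 5 discs, and 23.9, 45.9 and 42.6 in control discs. In wts day 9 replicates 2 and 3 the 95% counting intervals, 0.947 to 1.99 and 1.29 to 5.48, lay below those of all wts day 5 and control replicates. Lsp1gamma, a further LSP1 subunit gene and no member, had 14.7, 5.09 and 8.86 counts per 100 Lsp1beta counts in wts day 9 discs, 56.6, 65.7 and 34.1 in wts day 5 discs, and 86.4, 65.9 and 52.9 in control discs. Both subunit genes were thus lowest relative to Lsp1beta in the wts day 9 group. Their own levels were still highest in replicate 2 within that group, with Lsp1gamma at 0.853, 5.85 and 1.34 CPM in replicates 1 to 3. The LSP1 genes are paralogs, and the handling of reads shared between them is not known.

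Lsp2 encodes the other fat body hexamerin (3L, 12129393 to 12131869). It had 0.155, 0.140 and 0.831 CPM in wts day 5 discs, 0.906, 6.16 and 0.767 CPM in wts day 9 discs, and 0.515, 4.62 and 6.42 CPM in control discs. The groups overlapped, and the 3 highest replicates were control replicates 3 and 2 and wts day 9 replicate 2. An antisense gene, asRNA:CR11538, covers 84.6% of the Lsp2 exon bases, and reads of the pair cannot be told apart if counting ignored strand, which is not given.

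Rfabg, now named apolpp, encodes the apolipophorin that carries lipid through the haemolymph (4, 1060969 to 1077273). It had 1.61, 1.83 and 5.25 CPM in wts day 5 discs, 1.87, 79.5 and 9.39 CPM in wts day 9 discs, and 2.25, 12.2 and 7.49 CPM in control discs. A single replicate, wts day 9 replicate 2, held the high value, 6.51 times that of control replicate 2 (95% counting interval 5.72 to 7.43). Its log2 fold change in wts day 9 against control discs was 2.04 ± 1.08 with that replicate and -0.36 without it. For Lsp1beta the values were 0.78 ± 1.10 with it and -1.30 without it.

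The spread over replicates, as the SD of log2(CPM + 0.5), was 5.39 for Sgs3, 4.76 for Sgs7 and 2.79 for Fbp1 in control discs, and 2.55 for Rfabg, 2.23 for Fbp1 and 2.14 for Lsp1beta in wts day 9 discs. Not every member was uneven in every group, and Sgs7, near 0 counts in wts day 5 discs, had an SD of 0.0476 there. Uneven levels were the reason these genes were chosen, so the SDs are descriptions. The a and b libraries of a replicate differed far less than the replicates did. Of the 81 pairs of library counts, 77 held a count and 1 differed after adjustment (exact binomial test against library size, Benjamini-Hochberg adjusted p = 0.0359), Sgs3 in control replicate 3 with 23957 counts in a and 24458 in b.

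Summed over the 6 fat body genes, the level was 6.37, 5.33 and 26.7 CPM in wts day 5 discs, 13.9, 293 and 37.8 CPM in wts day 9 discs, and 11.2, 111 and 172 CPM in control discs. The 3 glue genes summed to 0.155, 0.351 and 0.416 CPM in wts day 5 discs, 1.01, 0.155 and 0 CPM in wts day 9 discs, and 2.57, 169 and 4140 CPM in control discs. Wts day 9 replicate 2 was therefore the highest of the 9 replicates in fat body RNA, with 5655 fat body counts, and held 3 glue counts. In control replicates 2 and 3 both sums were high. In bulk samples, fewer cells of a type and less RNA per cell cannot be told apart.

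The makeup of the fat body counts differed between these replicates as well. Fbp1 supplied 22.6%, 25.8% and 25.8% of the 6 genes' counts in wts day 9 replicates 1 to 3, 1.63%, 3.95% and 1.75% in wts day 5 replicates, and 20.0%, 5.87% and 65.8% in control replicates. The share in control replicate 3 (95% interval 64.1% to 67.4%) and that in control replicate 2 (4.98% to 6.86%) lay on either side of the wts day 9 shares. Per 100 Lsp1beta counts there were 54.1, 65.7 and 64.2 Fbp1 counts in wts day 9 discs, 3.77, 8.57 and 3.04 in wts day 5 discs, and 54.5, 12.7 and 488 in control discs. The proportion of Fbp1 to Lsp1beta was thus similar in the 3 wts day 9 replicates, whose summed levels ran from 13.9 to 293 CPM, and varied widely in the control replicates. Other members did not keep their proportion in wts day 9 discs. Rfabg supplied 13.4% (95% interval 9.52% to 18.2%), 27.2% and 24.9% of the counts in wts day 9 replicates 1 to 3, and Lsp2 6.51%, 2.10% and 2.03%.

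**Figure D2:**
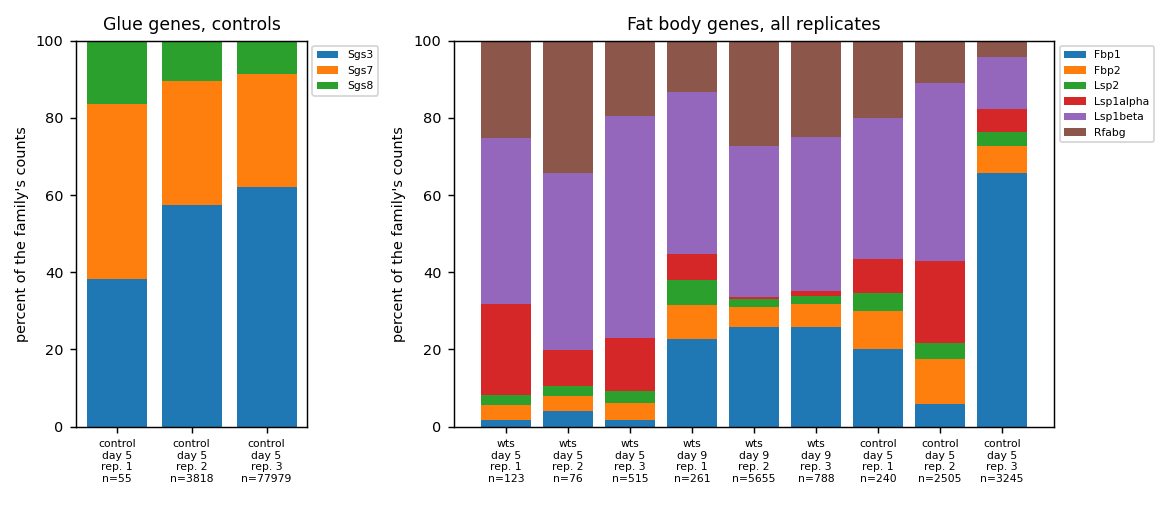
Share of each gene in the counts of its family, in percent: the 3 glue genes in the control replicates (left) and the 6 fat body genes in all replicates (right), with n the counts of the family. Sgs3 makes up 57.5% and 62.1% of glue counts in control replicates 2 and 3, whereas Fbp1 makes up 5.87% and 65.8% of fat body counts in the same replicates.

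Other genes of the salivary gland were measured for comparison, from a list of 13. Among them Sgs1, Sgs4, Sgs5, CG7587 and Eig71Ee, genes of further glue or gland-secreted proteins, followed the glue members. The genes ng1, ng2 and ng3, given below, did not. Sgs4 had 0, 0 and 0.0519 CPM in wts day 5 discs, 0.373, 0 and 0.0958 CPM in wts day 9 discs, and 0.234, 28.0 and 568 CPM in control discs. Sgs5 reached 33.2 and 463 CPM, Sgs1 14.1 and 92.2 CPM, CG7587 (now Sgs5bis) 13.0 and 706 CPM and the ecdysone-induced gene Eig71Ee 12.0 and 889 CPM in control replicates 2 and 3, and each was under 0.5 CPM in the other 7 replicates. The transcription factor gene fkh, needed for gland identity, had 8 counts in each of control replicates 2 and 3 and 0 in the other 7. Of the list, 1 gene passed the filter, sage, a transcription factor gene of the gland, and it was not called by edgeR (log2 fold change -1.01 ± 0.42 in wts day 5 and -1.24 ± 0.42 in wts day 9 discs against control discs). DESeq2 called it lower in wts day 9 discs. Its level was 7.68, 8.92 and 11.7 CPM in control replicates 1 to 3 and 1.33 to 5.85 CPM in wts replicates. Sage thus had the order of the glue genes over the controls, but in a far narrower range. When 1 replicate was left out, 0 to 6 genes of the list were called lower in wts day 5 and 0 to 5 in wts day 9 discs against control discs. The filter was rerun in those fits, so genes high in control replicates 2 and 3 alone could enter, and these counts are descriptions. PH4alphaSG1 and PH4alphaSG2, also on the list, had at most 2 counts in any replicate.

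The salivary genes differed in proportion between the 2 glue-rich control replicates. The ng genes, small X-linked genes also active in the salivary gland, numbered 4 on the list, and ng4 had 0 counts in every replicate. In control replicate 2, ng1, ng2 and ng3 had 21, 15 and 127 counts, and control replicate 3 had 0, 1 and 1. Per 100 Sgs3 counts, ng3 had 0.00207 counts in control replicate 3 (95% counting interval 5.23e-05 to 0.0115) and 5.78 (4.80 to 6.92) in control replicate 2. Eig71Ee had 34.6 (34.0 to 35.2) in control replicate 3 and 12.3 (10.8 to 14.0) in control replicate 2, and Sgs1 had 3.59 and 14.5. CG7587 had 152 counts per 100 Sgs5 counts in control replicate 3 and 39.1 in control replicate 2. The 2 replicates thus differed in the makeup of their salivary RNA and not in its amount alone.

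Of 15 further fat body genes in the table, 8 were tested. By edgeR 0 were called in either wts group against control discs. At an unadjusted p under 0.05 there were 3 lower and 0 higher in wts day 5 and 1 lower and 1 higher in wts day 9 discs, and DESeq2 called 1 lower and 0 higher in wts day 5 and 1 lower and 1 higher in wts day 9 discs. In wts day 9 against wts day 5 discs DESeq2 called 3 higher and 0 lower, and 4 were higher and 0 lower at an unadjusted p under 0.05. By edgeR 1 of the 8, regucalcin, was higher in wts day 9 than in wts day 5 discs (2.09 ± 0.46, adjusted p = 0.0244). Its values, 51.0, 44.2 and 40.7 CPM in wts day 9 discs, 13.6, 9.55 and 8.67 CPM in wts day 5 discs and 11.0, 19.1 and 49.3 CPM in control discs, did not peak in wts day 9 replicate 2, and its call was lost when any 1 of the 6 wts replicates was left out. Obp99b, an odorant-binding protein gene expressed in fat body, did follow the members, with 0.259, 0.421 and 1.66 CPM in wts day 5 discs, 2.29, 29.7 and 2.73 CPM in wts day 9 discs, and 0.749, 20.0 and 21.9 CPM in control discs. Other genes of the list did not. Lsd-1 was highest in wts day 9 replicate 1 (9.54 CPM), tobi in control replicate 1 (3.04 CPM) and Drs in wts day 5 replicate 2 (1.83 CPM). The fatty acid synthase gene CG3523 (now FASN1), which many tissues use, made up most of the list's summed level and ran from 164 to 327 CPM. Adh, Pepck and fit were listed at 0 in every library. On the same strand, Adhr covers 93.9% of the Adh exon bases, and no position was matched for Pepck. How reads shared by overlapping genes were counted is not given, so the 0 of Adh does not show that its RNA was absent.

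Genes whose levels ran most like a member over the 9 replicates were taken by Pearson correlation of log2(CPM + 0.5) among 9489 genes. For Sgs3 they were Sgs7 (r = 0.999), Sgs8 (0.997), Sgs4 (0.997), Sgs5 (0.996) and Pig1 (0.994). For Lsp2 they were Obp99b (0.990), Fbp2 (0.984), CG34166 (0.956), CG13607 (0.952) and CG5958 (0.925). Among these genes Pig1 had at most 29 counts in a replicate, CG13607 at most 10 and CG5958 at most 25. For Fbp1 the highest value was 0.934, for CG31778, a gene of at most 11 counts, and no other member was among its first 5. The replicates share library depth and handling, so these values describe 9 points and carry no test.

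Levels of genes that report ecdysone timing in many tissues were set beside the members, from a list of 23 that were all tested. Against control discs, wts day 5 discs had 8 genes lower and 1 higher (11 and 2 by DESeq2), with a median log2 fold change over the list of -0.43 against -0.0018 over all tested genes. The nuclear receptor gene Hr4 was lower, at a log2 fold change of -5.56 ± 1.38 (adjusted p = 0.0222), as were the repressor gene Blimp-1 at -7.69 ± 1.81 (adjusted p = 0.0181) and Eip78C at -5.75 ± 1.04 (adjusted p = 0.00543). The ecdysone-inducible disc genes ImpE2 (-5.04 ± 0.79, adjusted p = 0.00273), ImpE3 (-4.28 ± 0.73, adjusted p = 0.00418) and ImpE1 (-2.85 ± 0.61, adjusted p = 0.0122) were lower too. The other 2 lower genes were Hr46, now Hr3 (-7.06 ± 1.83, adjusted p = 0.0267), and br (-0.49 ± 0.13, adjusted p = 0.0293). The competence factor gene ftz-f1 was higher (1.02 ± 0.17, adjusted p = 0.00384). On the same strand, CG12912 overlaps 61.8% of the Hr46 exon bases and lncRNA:CR45939 29.4% of those of ftz-f1. Kr-h1, also on the list, is overlapped over 78.6% by CG45075. How reads shared by such genes were counted is not given.

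In wts day 9 against control discs 0 timing genes were lower by edgeR, likewise 0 by DESeq2 and 3 at an unadjusted p under 0.05, and 5 were higher, Eip93F (2.33 ± 0.46, adjusted p = 0.00500), the ecdysone-inactivating enzyme gene Cyp18a1 (1.90 ± 0.47, adjusted p = 0.0140), ftz-f1, Kr-h1 and Eip74EF. Leaving out 1 replicate gave 0 to 5 timing genes lower and 4 to 6 higher in this comparison. The list's median log2 fold change was 0.092, against -0.014 over all genes. In wts day 9 against wts day 5 discs 11 were higher and 0 lower by edgeR (14 and 0 by DESeq2, 15 and 0 at an unadjusted p under 0.05), with a list median of 0.78 against -0.015 over all genes. Many calls of single timing genes depended on single replicates, but not all did. In wts day 5 against control discs, Eip78C, ImpE2, ImpE3 and ftz-f1 kept their calls whichever replicate was left out. So did Eip93F, ftz-f1, Kr-h1 and Eip74EF in wts day 9 against control discs, and Kr-h1 in wts day 9 against wts day 5 discs. Of the 23, 3 were called lower on day 5 without wts day 5 replicate 3, 4 without wts day 5 replicate 2 and 5 without control replicate 1, and Hr4, Hr46 and Blimp-1 lost their calls when any 1 wts day 5 replicate was left out (adjusted p 0.0529 to 0.111). ImpE1 lost its call without wts day 5 replicate 3, br without any 1 of 5 replicates and Cyp18a1 without wts day 9 replicate 3. The 11 genes higher in wts day 9 than in wts day 5 discs became 3, 5 and 2 without wts day 9 replicates 1, 2 and 3, and 5, 1 and 1 without wts day 5 replicates 1, 2 and 3.

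Timing genes called lower in wts day 5 than in control discs ordered the replicates in another way than either family did, and 3 of them are given here, picked after their values were seen. Hr4 had 2.49, 2.11 and 2.70 CPM in wts day 5 discs, 62.4, 5.48 and 31.2 CPM in wts day 9 discs, and 188, 2.62 and 156 CPM in control discs. Blimp-1 had 0.466, 0.491 and 0.104 CPM in wts day 5 discs, 61.6, 6.26 and 44.3 CPM in wts day 9 discs, and 110, 0.577 and 104 CPM in control discs. ImpE2 had 73.2, 67.4 and 22.3 CPM in wts day 5 discs, 949, 246 and 627 CPM in wts day 9 discs, and 2217, 452 and 2684 CPM in control discs. Control replicate 2 and wts day 9 replicate 2 were the lowest of their groups for all 3 genes. The whole list was less uniform. Wts day 9 replicate 2 was the lowest of its group for 12 of the 23 genes and the highest for 7, and control replicate 2 was the lowest of its group for 14 genes, with control replicate 3 the lowest for the other 9. Among those 9 was the ecdysone receptor gene EcR, at 381, 317 and 427 CPM in wts day 5, 343, 348 and 308 CPM in wts day 9 and 321, 298 and 244 CPM in control discs.

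Set against those values, control replicate 1 combined high Hr4 (188 CPM) with low glue RNA (2.57 CPM) and low fat body RNA (11.2 CPM). Control replicate 2 combined low Hr4 (2.62 CPM) with 169 CPM of glue and 111 CPM of fat body RNA, and control replicate 3 was high in Hr4, glue and fat body RNA. Wts day 9 replicate 2, the highest in fat body RNA with 293 CPM, was the lowest of its group in Hr4. All wts day 5 replicates were low in Hr4 and in glue RNA. Whether hormone timing had a part in the levels of the glue or fat body genes was not tested, and with 3 replicates a group it cannot be told apart from other differences between replicates.

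**Figure D3:**
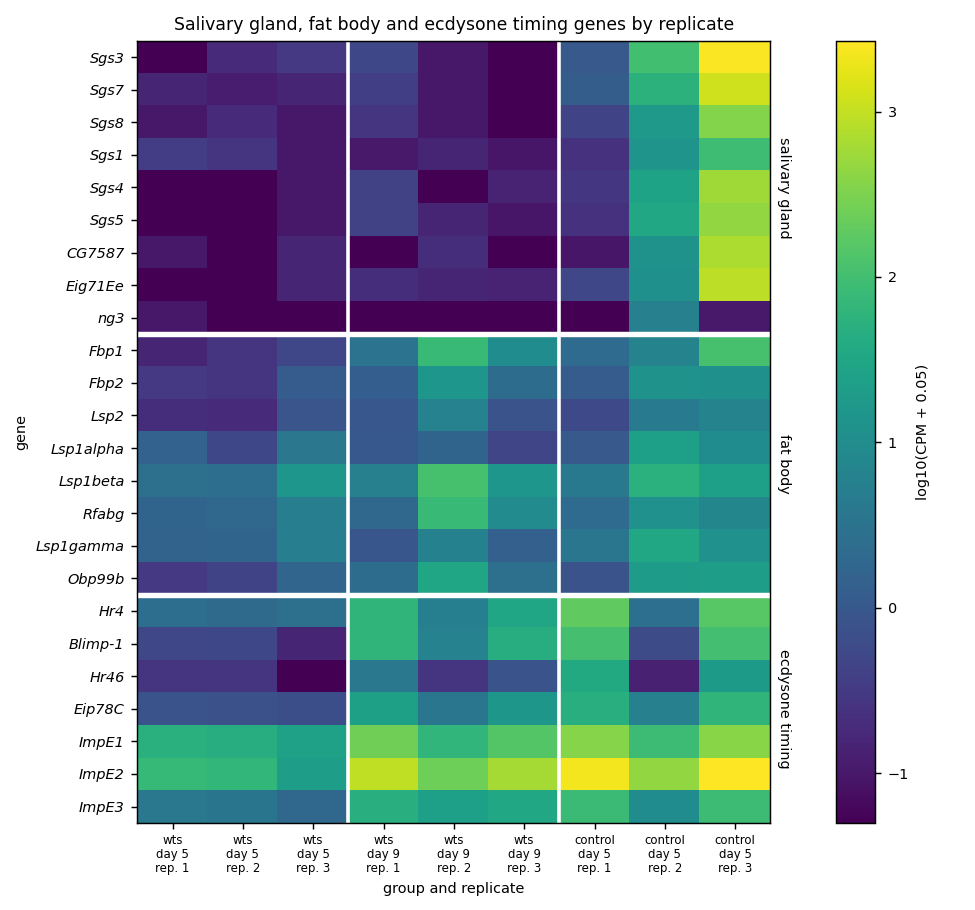
Level of salivary gland genes, fat body genes and 7 of the 23 ecdysone timing genes, all 7 called lower in wts day 5 than in control discs (rows) in each replicate (columns, wts day 5, wts day 9 and control day 5), as log10 of CPM with 0.05 added, in colour. Salivary genes are bright in control replicates 2 and 3, except ng3, which is bright in control replicate 2 alone. Most fat body genes are bright in control replicates 2 and 3 and in wts day 9 replicate 2. The 7 timing genes drawn are brighter in control replicates 1 and 3 than in control replicate 2. They are also brighter in wts day 9 replicates 1 and 3 than in wts day 9 replicate 2.

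Markers of other tissues that a dissected disc could carry along were read in the same replicates. The larval gut list of 8 genes summed to 0.155 to 0.571 CPM in wts day 5 discs, 0 to 0.673 CPM in wts day 9 discs, and 0.375, 1.02 and 35.8 CPM in control replicates 1 to 3. In control replicate 3 most of it came from the digestive protease gene Jon65Aiii, with 576 counts, against at most 4 in any other replicate, and 6 of the 8 genes had a count. The replicate highest in glue RNA was thus also the highest in the gut list, and the part of gut RNA in the result was not tested. The ring gland list of 7 genes summed to 5.66 to 7.23 CPM in wts day 5, 6.05 to 7.04 CPM in wts day 9 and 9.32 to 12.5 CPM in control discs. Its genes went different ways within the controls. The ecdysone synthesis gene spok had 45 counts in control replicate 3 and at most 1 in any other replicate, whereas dib, of the same pathway, had 5.52, 3.77 and 1.22 CPM in control replicates 1 to 3.

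Muscle markers, 8 genes, summed to 85.4 to 169 CPM in wts day 5 discs, 25.3 to 41.4 CPM in wts day 9 discs, and 277, 966 and 196 CPM in control replicates 1 to 3. By edgeR 6 of them were called lower in wts day 5 and 8 in wts day 9 than in control discs. Larval cuticle markers, 6 genes, summed to 1.09, 271 and 0.935 CPM in wts day 5 replicates, 2.02 to 4.58 CPM in wts day 9 replicates, and 53.4, 392 and 121 CPM in control replicates. Of the 5 cuticle genes tested, 2 were called lower in wts day 5 and 3 in wts day 9 than in control discs. Control replicate 2 was the highest for both lists, and wts day 9 replicate 2, with 25.3 CPM of muscle and 2.02 CPM of cuticle markers, the lowest of its group for both. Haemocyte markers, 8 genes, summed to 480 to 656 CPM in wts day 5, 687 to 939 CPM in wts day 9 and 553 to 917 CPM in control discs. Ppn, at 417 to 797 CPM, made up most of that sum. Of the 8, Hml, NimC1, Pxn, Sr-CI and eater were called higher in wts day 9 than in wts day 5 discs (edgeR; list median log2 fold change 1.76), and Hml and Sr-CI were called higher in wts day 9 than in control discs. The wts day 9 group, with a median summed fat body level of 37.8 CPM against 6.37 CPM in wts day 5 discs, was thus also higher in these haemocyte genes, and their part in the result was not tested. Hml had 42.2, 36.0 and 23.9 CPM in wts day 9 replicates 1 to 3 and did not peak in replicate 2, where fat body RNA did. Markers of the wing disc epithelium, 8 genes, summed to 1155 to 1218 CPM in wts day 5, 1185 to 1311 CPM in wts day 9 and 1360 to 1369 CPM in control discs, so that every wts sum lay below every control sum. Of these 8 genes 4 were called lower in wts day 5 than in control discs, and 3 lower and 1 higher in wts day 9 discs, with vg, the wing selector gene, at log2 fold changes of -0.47 ± 0.09 in wts day 5 and -0.89 ± 0.09 in wts day 9 against control discs.

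**Figure D4:**
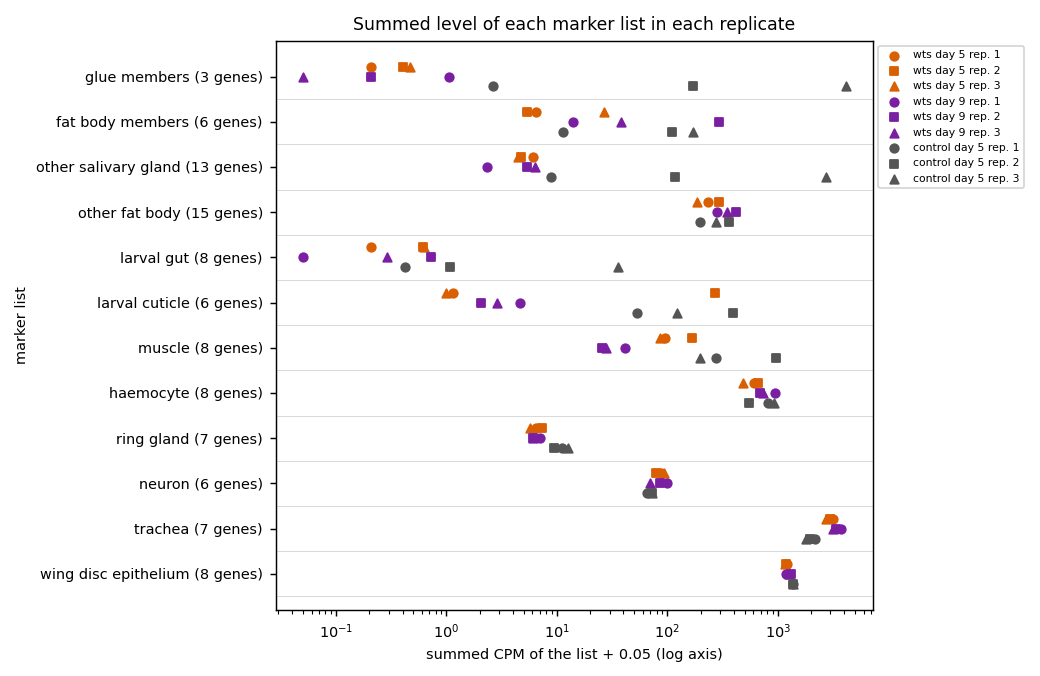
Summed level of each marker list in each replicate, as CPM with 0.05 added on a log axis (colour is the group, shape the replicate). The glue list runs from 0 CPM in wts day 9 replicate 3 to 4140 CPM in control replicate 3, whereas the wing disc epithelium list lies between 1155 and 1369 CPM in all 9 replicates.

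Libraries held 5611674 to 11193858 counts, and replicates 14201662 to 19762758 in wts day 5, 19297558 to 20899989 in wts day 9 and 18063124 to 22263073 in control discs. At these depths 1 count is worth about 0.05 CPM, and TMM factors ran from 0.972 to 1.04. Control replicate 3 had the highest factor, and scaled by library size alone its glue genes summed to 4317 CPM in place of 4140.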

How the data were processed

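Read counts per gene were deposited as raw whole numbers for 18 libraries, made with HTSeq per the submitters' processing notes. For the HTSeq version, aligner, genome build, annotation and strand setting, nothing is given in the sources used here. The a and b libraries of a replicate were summed (chi-square over degrees of freedom 0.994 to 1.06 between them, against 11.1 to 58.9 between replicates), giving n = 3 per group. Genes were filtered with filterByExpr, which left 8585, scaled with TMM, and fitted over all 3 groups with edgeR 4.0.16 (quasi-likelihood F-test, R 4.3.3), with Benjamini-Hochberg adjustment over all genes tested. Means, SDs and levels are CPM of the full library total times the TMM factor. Same-numbered replicates were not treated as pairs, since the labels do not link them. The SE given with an edgeR log2 fold change was derived from the test, as the absolute fold change over the square root of its F statistic. Ratios of counts carry exact 95% intervals. The fit was tested on simulated data with known changes.

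The members and the gene lists were chosen with earlier results of these data known, by symbol, with older symbols matched through RefSeq. Positions come from Ensembl release 115 and exon length from the union of exons. The genes named are the members, the salivary, fat body and timing lists, and the 5 genes most like Sgs3, Fbp1 and Lsp2 among those with at least 10 counts in 1 replicate. Alternatives were DESeq2 1.42.0, RLE factors, library size alone, other filters, a replicate block, a or b libraries alone, only the groups compared, leaving out each replicate, and pseudocounts of 0.1 and 5 in place of 0.5. Figures used matplotlib 3.10.9 under Python 3.11.15. Promoter and protein sequences were not analysed here.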

Additional observations from a re-analysis of the deposited data

How the results depend on the processing

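Counts of called genes were 1590 for wts day 5 against control discs, 2543 for wts day 9 against control discs and 716 for wts day 9 against wts day 5 discs. DESeq2 called 1223 in the last comparison, and the cause was not tested. Leaving out 1 replicate gave 739 to 1680, 1548 to 2674 and 152 to 873 in the 3 comparisons. The filter was rerun in each of those fits, so the genes and members tested could differ from the full fit. The lowest counts, 739 and 152, came without replicate 3 of wts day 5, and 1548 without replicate 2 of wts day 9. The first count was also 946 without wts day 5 replicate 1 and 1004 without control replicate 1. The last was 467, 219, 432, 247 and 212 without wts day 5 replicates 1 and 2 and wts day 9 replicates 1, 2 and 3. With the replicate block the counts were 1293, 2260 and 528. To compare same-numbered replicates, each group's mean log2 level was subtracted from every gene. Correlations of these deviations between same-numbered replicates of different groups ran from -0.168 to 0.227. By them, the best partner in another group carried the same number for 4 of 9 replicates. Members called lower in wts day 5 against control discs numbered 4, but 0 without wts day 5 replicate 1 or 3, 2 without wts day 5 replicate 2 or control replicate 3, 7 without control replicate 1, and 1 from the a libraries alone. Of these members, Fbp1 and Fbp2 also lost their calls without wts day 9 replicate 3, and Fbp2 without control replicate 2. Lsp1alpha in wts day 9 against control discs was not called with the replicate block (adjusted p = 0.0592). By DESeq2, 5, 3 and 3 members were called in the 3 comparisons, and 0 members were called higher against control discs by any setting. Of 424 fold changes of members under other settings, 11 changed sign, all of values not called. The 5 genes most like Fbp1 shared 3 with those at either other pseudocount. Near 0 counts, differences between the wts groups in glue RNA were not detectable at this depth.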
